A study of Arabidopsis thaliana with 12 samples.

Results

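The genes DFR, UF3GT, AT5MAT, UGT78D2 and UGT78D1 encode enzymes of flavonoid and anthocyanin synthesis. They were taken by name from the annotation of the array, and each had 1 probe set (a group of probes read as 1 value), so the set was 5 of 22746 probe sets tested. The genes were chosen with earlier results of these data known.

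The series used 12 one-colour arrays and biotin-labelled RNA. The RNA came from above-ground tissue (aerial part) of Arabidopsis thaliana, wild type, ecotype Columbia. All plants grew for 9 days at 22 °C in continuous white light and were then held for 24 h in 1 of 4 conditions, which made them 10 days old at harvest. The conditions were white light at 22 °C (WL 22 °C), white light with added far-red light at 22 °C (WFR 22 °C), white light at 26 °C (WL 26 °C) and white light with added far-red light at 26 °C (WFR 26 °C). Each had 3 arrays, labelled as biological replicates. The labels do not say whether a replicate was 1 plant or a pool. Added far-red light imitates the light reflected by neighbouring leaves, and the series asked how it acts together with warmth.

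Flavonoids are built from phenylpropanoid precursors and branch into colourless flavonols, which absorb ultraviolet light, and anthocyanins, the red and purple pigments of stressed or brightly lit leaves. DFR (dihydroflavonol reductase) draws intermediates into the anthocyanin branch, and sugar and acyl groups are then added to the pigment. UGT78D2 adds glucose to anthocyanidins and also to flavonols. UF3GT, also named UGT79B1, adds xylose to the anthocyanin's glucose, and AT5MAT adds a malonyl group. UGT78D1 adds rhamnose to flavonols and stands outside the anthocyanin branch.

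Array medians lay between 6.91 and 7.01 on the log2 scale, and arrays correlated across probe sets at 0.99526 to 0.99786 within a condition and at 0.99328 to 0.99766 between conditions, where probe sets are not independent replicates. RCA, the activase of Rubisco and the only named one of 20 leaf markers written, had group means of 14.42 to 14.46. Of 15 root markers written, 3 were named. The root hair expansin genes EXPA7 and EXPA18 had group means of 4.93 to 5.37, and PYK10, a glucosidase of endoplasmic reticulum bodies, 11.67 to 12.14.

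DFR had the largest far-red difference of the 5 genes, and it was found at 26 °C. Its log2 values were 11.28, 11.59 and 11.00 in WL 26 °C and 10.57, 10.54 and 10.60 in WFR 26 °C. All 3 far-red arrays lay below all 3 white light arrays, and they lay within 0.06 of each other. The difference was -0.72 ± 0.16 (SE), which puts DFR at 60.7% of its white light level, but it did not pass the test over all probe sets (limma, adjusted p = 0.21, with an unadjusted p = 0.000557). In whole aerial parts, fewer cells expressing a gene and less RNA per cell cannot be told apart.

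At 22 °C the DFR values were 11.22, 10.89 and 10.76 in WL and 11.04, 10.51 and 11.10 in WFR. The groups overlapped, with a difference of -0.07 ± 0.16 (SE) and a 95% interval of -0.42 to 0.27. The far-red difference at 26 °C minus that at 22 °C was -0.65, with an interval of -1.14 to -0.15 (limma, unadjusted p = 0.0138, adjusted p = 0.902). Over the conditions the mean was highest in WL 26 °C (11.29 ± 0.29, SD, n = 3), followed by WL 22 °C (10.96 ± 0.24), WFR 22 °C (10.88 ± 0.32) and WFR 26 °C (10.57 ± 0.03). No neighbours in this order differed by the limma test, which takes 1 spread for all conditions of a gene.

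**Figure D1:**
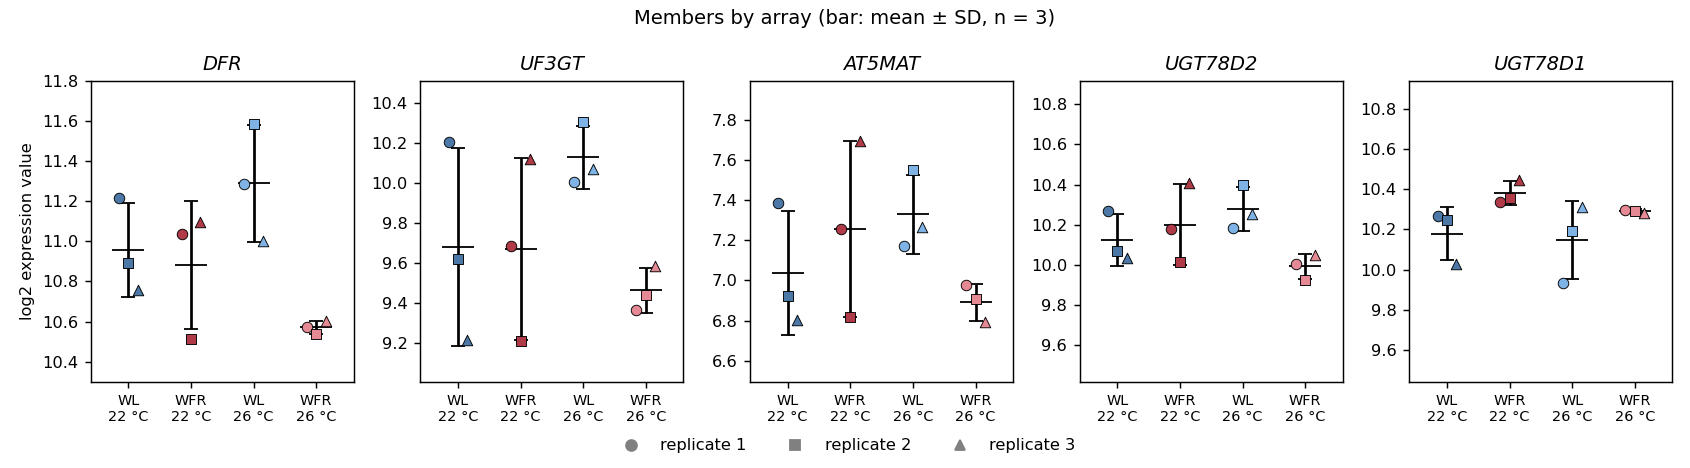
Log2 expression of the 5 genes in each of the 12 arrays, by condition, with bars for the mean ± SD (n = 3) and marker shapes for the replicate number. All panels span the same range on the log2 scale; for DFR, UF3GT, AT5MAT and UGT78D2 the 3 WFR 26 °C arrays lie below the 3 WL 26 °C arrays, and for UGT78D1 these groups overlap.

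UF3GT, the xylosyltransferase gene, was also lower with far-red light at 26 °C. It read 10.01, 10.31 and 10.07 in WL 26 °C and 9.37, 9.44 and 9.59 in WFR 26 °C. These groups did not overlap, and the far-red mean was 63.1% of the white light mean (-0.66 ± 0.22, SE; limma, adjusted p = 0.531). When the fit held these 2 conditions alone, this difference was called (limma, adjusted p = 0.0405), while that of DFR was not (0.104). That fit called 22 of all probe sets.

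At 22 °C UF3GT varied more between replicates than between lights. Its values were 10.20, 9.62 and 9.22 in WL and 9.69, 9.21 and 10.12 in WFR, a difference of -0.01 ± 0.22 (SE) with an interval of -0.49 to 0.47. This difference was 0.25 without WL 22 °C replicate 1 and 0.22 without WFR 22 °C replicate 2. The mean was highest in WL 26 °C, at 10.13 ± 0.16 (SD), and lowest in WFR 26 °C, at 9.46 ± 0.11, with WL 22 °C at 9.68 ± 0.49 and WFR 22 °C at 9.67 ± 0.45 between them.

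AT5MAT, the malonyltransferase gene, read 7.17, 7.55 and 7.27 in WL 26 °C and 6.98, 6.91 and 6.79 in WFR 26 °C. The far-red arrays were again all below the white light arrays, at 73.8% of their mean level (-0.44 ± 0.19, SE; limma, adjusted p = 0.668). The values at 22 °C were 7.39, 6.92 and 6.80 in WL and 7.26, 6.82 and 7.70 in WFR, with overlap and a difference of 0.22 ± 0.19 (SE). This difference was 0.0012 without WFR 22 °C replicate 3. The highest and lowest of these WFR arrays differed by 0.88, more than the conditions' means did. The means were 7.33 ± 0.20 (SD) in WL 26 °C, 7.26 ± 0.44 in WFR 22 °C, 7.04 ± 0.31 in WL 22 °C and 6.89 ± 0.09 in WFR 26 °C, and no neighbours differed by the limma test.

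UGT78D2, the glucosyltransferase gene that serves both branches, showed a smaller difference of the same sign at 26 °C. Its values were 10.18, 10.40 and 10.25 in WL 26 °C and 10.00, 9.92 and 10.05 in WFR 26 °C. The groups did not overlap and differed by -0.29 ± 0.10 (SE), with WFR at 82.0% of WL (limma, adjusted p = 0.551). At 22 °C it read 10.27, 10.07 and 10.03 in WL and 10.18, 10.01 and 10.41 in WFR, and the groups overlapped (0.08 ± 0.10, SE). Its means followed the order of AT5MAT, with 10.28 ± 0.11 (SD) in WL 26 °C, 10.20 ± 0.20 in WFR 22 °C, 10.12 ± 0.13 in WL 22 °C and 9.99 ± 0.06 in WFR 26 °C. Again no neighbours differed by the limma test.

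UGT78D1, the flavonol rhamnosyltransferase gene, had positive far-red differences at both temperatures. At 22 °C it read 10.27, 10.25 and 10.03 in WL and 10.34, 10.36 and 10.45 in WFR, so the far-red arrays were all higher, by 0.20 ± 0.09 (SE; limma, adjusted p = 0.373). Without WL 22 °C replicate 3, the lowest of these arrays, the difference was 0.13. At 26 °C it read 9.93, 10.19 and 10.31 in WL and 10.30, 10.29 and 10.28 in WFR. Here the groups overlapped and differed by 0.14 ± 0.09 (SE; limma, adjusted p = 0.814), or by 0.037 without WL 26 °C replicate 1. Its mean was highest in WFR 22 °C (10.38 ± 0.06, SD), then WFR 26 °C (10.29 ± 0.01), WL 22 °C (10.18 ± 0.13) and WL 26 °C (10.15 ± 0.20), and no neighbours differed by the limma test.

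Taking the 5 genes over each comparison, far-red light at 26 °C gave 4 negative differences and 1 positive, where 43.3% of all probe sets were negative. The median was -0.44 against 0.02 over all probe sets. DFR, UF3GT, AT5MAT and UGT78D2 correlated within conditions at 0.82 to 0.93. Shared signs in this and the other comparisons are therefore not separate observations. Limma called 0 of the 5, against 0.0879% of all probe sets (20 of 22746), and 4 of the 5 had an unadjusted p under 0.05, against 6.81% of all probe sets. The 4 with negative differences also had groups that did not overlap, as did 5.17% of all probe sets in that direction. Ordered from the most negative difference among 22746 probe sets, DFR stood at place 26, UF3GT at 33, AT5MAT at 117 and UGT78D2 at 327. UGT78D1 stood at place 20592 in the same order. Because the 5 genes were chosen with earlier results of these data known, these shares and places are descriptions and not independent evidence. Without WL 26 °C replicate 2, the highest white light array for DFR, UF3GT, AT5MAT and UGT78D2, the differences of DFR and UF3GT were both -0.57.

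**Figure D2:**
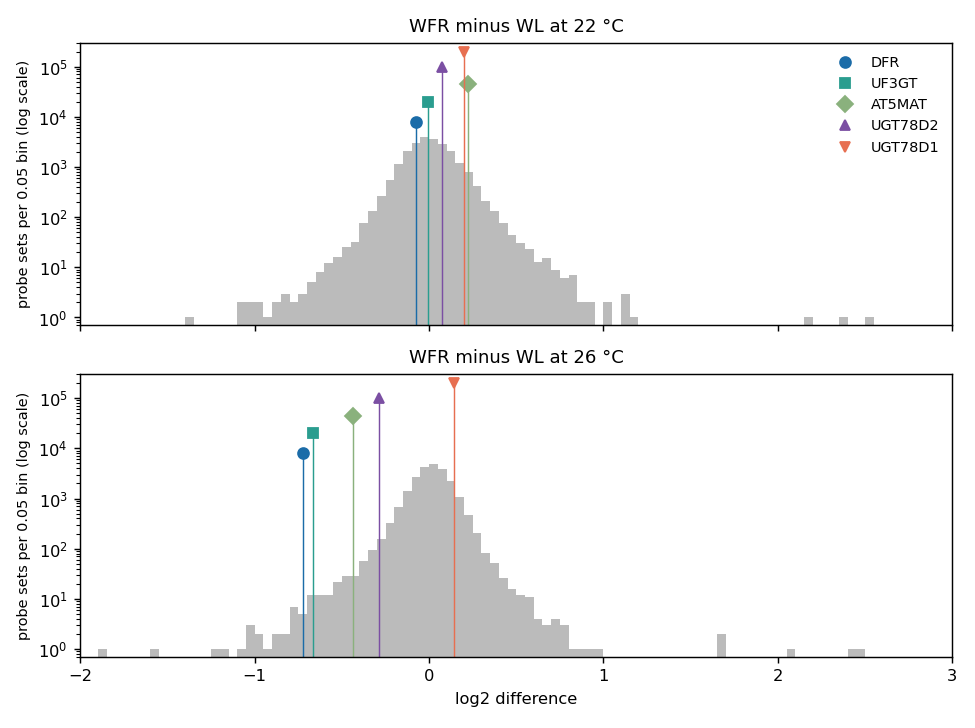
Number of probe sets (log scale, bins of 0.05) by log2 difference between WFR and WL, at 22 °C above and at 26 °C below, with the 5 genes marked by lines whose heights carry no value. At 22 °C the genes lie between -0.07 and 0.22 in the body of the distribution, and at 26 °C DFR and UF3GT lie in its lower tail at -0.72 and -0.66; UGT78D1 is at 0.14.

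At 22 °C the far-red differences of the 5 genes ran from -0.07 to 0.22, with a median of 0.08 against 0.00 over all probe sets. None of the 5 was called (0 by limma, against 0.659% of all probe sets). UGT78D1 alone passed an unadjusted p of 0.05 in the limma fit, as did 13.2% of all probe sets. This depended on the scaling. With array medians subtracted, its difference was 0.14 (limma, unadjusted p = 0.176). In the values as deposited, UGT78D1 was also the 1 gene whose groups did not overlap, as for 9.16% of all probe sets in that direction. Its 95% interval at 22 °C was 0.002 to 0.40. The intervals of UF3GT and AT5MAT at 22 °C, -0.49 to 0.47 and -0.18 to 0.62, ran from below to above 0.

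The difference between the far-red effects at the 2 temperatures was negative for all 5 genes, against 47% of all probe sets. It was -0.65 for DFR, -0.66 for UF3GT and for AT5MAT, -0.36 for UGT78D2 and -0.06 for UGT78D1, with a median of -0.65 against 0.01 over all probe sets. By limma, 0 of the 5 and 0% of all probe sets were called. At an unadjusted p under 0.05 were DFR (0.0138), UGT78D2 (0.0223) and AT5MAT (0.0256), against 5.51% of all probe sets, and UF3GT was at 0.0562. The 95% interval was -1.33 to 0.02 for UF3GT and -0.34 to 0.22 for UGT78D1. These values share the arrays of both far-red comparisons and add no separate evidence to them.

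**Figure D3:**
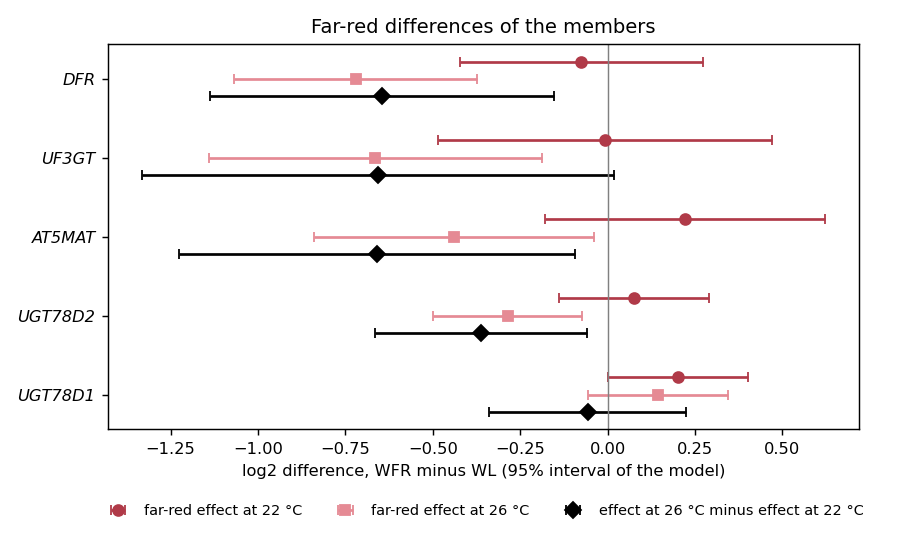
Log2 difference between WFR and WL for each gene at 22 °C (circles) and 26 °C (squares), and the difference between these (diamonds), with 95% intervals from the model on all 12 arrays. The intervals at 26 °C lie below 0 for DFR, UF3GT, AT5MAT and UGT78D2 and cross 0 for UGT78D1; none of these differences was called over all probe sets.

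Warmth in white light went with higher means of 4 of the 5 genes, where 54.6% of all probe sets were lower. WL 26 °C exceeded WL 22 °C by 0.45 ± 0.22 (SE) for UF3GT, 0.33 ± 0.16 for DFR, 0.29 ± 0.19 for AT5MAT and 0.15 ± 0.10 for UGT78D2, and UGT78D1 differed by -0.03 ± 0.09. The groups overlapped for every one of the 5. Calls by limma numbered 0 (0.611% of all probe sets), and 0 of the 5 had an unadjusted p under 0.05 (12.8%). With arrays weighted by quality, DFR and UF3GT were called (0.48 and 0.54, limma, adjusted p = 0.0399 and 0.0498), in a fit that called 1614 of all probe sets. In that fit WL 26 °C replicate 2, the highest WL 26 °C array for both genes, had a weight of 2.702. The other WL 26 °C arrays had 0.724 and 0.915, so these calls lean on 1 array. The difference of UF3GT was 0.22 without WL 22 °C replicate 3 and 0.71 without WL 22 °C replicate 1. That of AT5MAT was 0.18 without WL 22 °C replicate 3. Without WL 26 °C replicate 2, the difference was 0.19 for DFR and 0.093 for UGT78D2.

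With far-red light, warmth went with lower means of all 5 genes, against 48.8% of all probe sets. WFR 26 °C minus WFR 22 °C was -0.37 ± 0.19 (SE) for AT5MAT, -0.31 ± 0.16 for DFR, -0.21 ± 0.10 for UGT78D2, -0.21 ± 0.22 for UF3GT and -0.09 ± 0.09 for UGT78D1. Without WFR 22 °C replicate 3 these were -0.15 for AT5MAT, -0.21 for DFR, -0.10 for UGT78D2 and 0.015 for UF3GT. There was no call among the 5 by limma, against 1.1% of all probe sets, and 0 had an unadjusted p under 0.05, against 14.1%. UGT78D1 was the 1 gene whose groups did not overlap, as for 9.67% of all probe sets in that direction.

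Against neither signal, both together left DFR at 76.5% of its level (-0.39 ± 0.16, SE; limma, adjusted p = 0.258). Its WFR 26 °C arrays all lay below its WL 22 °C arrays, as for 9.14% of all probe sets in that direction. UF3GT, AT5MAT and UGT78D2 differed by -0.22, -0.15 and -0.13, with overlap, and UGT78D1 by 0.11, with its WFR 26 °C arrays all above its WL 22 °C arrays (11.9% of all probe sets). With 2.25% of all probe sets called by limma, 0 of the 5 were, and DFR alone had an unadjusted p under 0.05 (15.9% of all probe sets).

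Warmth alone minus far-red light alone was positive for UF3GT (0.46 ± 0.22, SE), DFR (0.41 ± 0.16), UGT78D2 (0.08 ± 0.10) and AT5MAT (0.07 ± 0.19). It was negative for UGT78D1, at -0.23 ± 0.09, with groups that did not overlap, as for 14.7% of all probe sets in that direction. The test called 0 of the 5 (limma, 4.03% of all probe sets), and DFR and UGT78D1 had an unadjusted p under 0.05 (0.0244 and 0.0243), as did 18.9% of all probe sets.

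Averaged over both temperatures, the far-red difference was -0.40 ± 0.11 (SE) for DFR (limma, adjusted p = 0.117), -0.34 ± 0.16 for UF3GT, -0.11 ± 0.13 for AT5MAT, -0.10 ± 0.07 for UGT78D2 and 0.17 ± 0.07 for UGT78D1 (adjusted p = 0.237). No gene of the 5 was called by limma, against 1.12% of all probe sets, and DFR and UGT78D1 had an unadjusted p under 0.05, as did 14.5%. In a two-sided exact permutation of the light labels within each temperature (400 assignments, smallest possible p = 0.005), UGT78D1 gave p = 0.02 and DFR p = 0.055, with p = 0.155 for UF3GT, 0.28 for UGT78D2 and 0.585 for AT5MAT. UGT78D1 was the only one of 10 such tests, light and temperature for each gene, with p under 0.05, and these p are not adjusted. It lost this when any WFR 26 °C array was left out.

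Averaged over both lights, the estimated differences with warmth were at most 0.12 in either direction, but the 95% interval of UF3GT was -0.22 to 0.46. For UF3GT, DFR, UGT78D2 and AT5MAT this average joined a positive difference in white light and a negative one with far-red light. The values were 0.12 ± 0.16 (SE) for UF3GT, 0.01 ± 0.11 for DFR, -0.03 ± 0.07 for UGT78D2, -0.04 ± 0.13 for AT5MAT and -0.06 ± 0.07 for UGT78D1. While limma called 5.39% of all probe sets, it called 0 of the 5, and 0 had an unadjusted p under 0.05, against 19.3%. The exact permutation p ranged from 0.38 for UGT78D1 to 0.95 for DFR.

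DFR, UF3GT, AT5MAT and UGT78D2 also moved together between arrays of the same condition. After subtraction of the condition means, their values correlated at 0.82 to 0.93 over the 12 arrays, with the highest value for UGT78D2 with AT5MAT. UGT78D1 correlated with them at 0.13 to 0.51. All 5 genes were above their condition mean in WL 22 °C replicate 1, WFR 22 °C replicate 3 and WL 26 °C replicate 2. None of them was in WL 22 °C replicate 3, WFR 22 °C replicate 2 or WL 26 °C replicate 1. UF3GT spanned the widest range, 0.98 between the highest and lowest WL 22 °C arrays. These correlations are descriptions of points that share arrays and a normalisation.

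**Figure D4:**
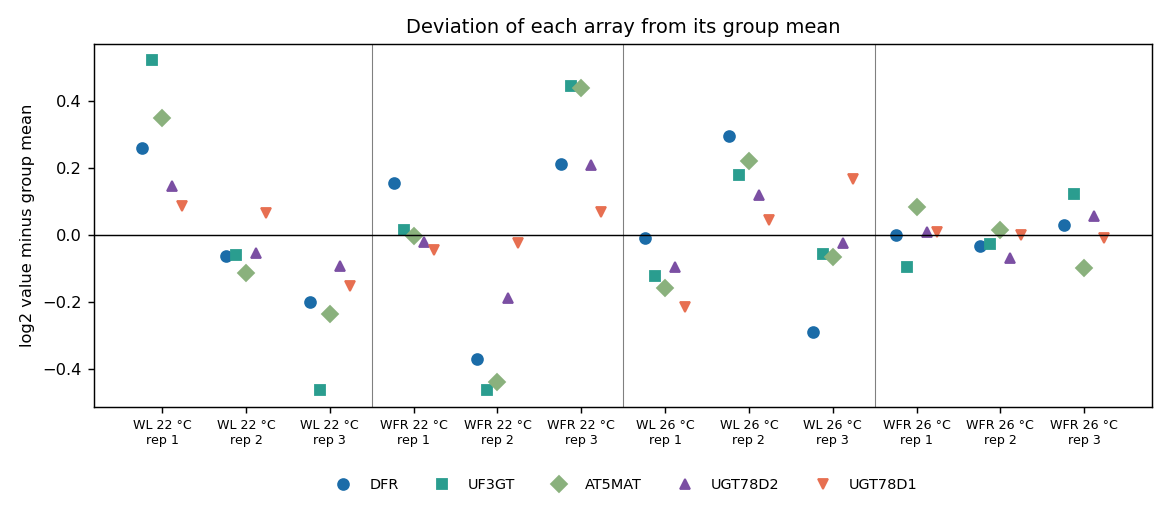
Log2 value of each gene in each array minus the mean of its condition, for the 12 arrays. In WL 22 °C replicate 1, WFR 22 °C replicate 3 and WL 26 °C replicate 2 all 5 genes are above 0, and the points of WFR 26 °C stay within 0.12 of 0.

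The replicate spread of the 5 genes was narrowest in WFR 26 °C. The SD there was 0.03 for DFR, 0.01 for UGT78D1, 0.06 for UGT78D2, 0.11 for UF3GT and 0.09 for AT5MAT, the lowest of the 4 conditions for each gene. Over all probe sets, 27.7% had their lowest SD in WFR 26 °C and 29.5% in WL 26 °C. The model takes 1 spread for all conditions of a gene. The residual SD was 0.25 for DFR, 0.35 for UF3GT and 0.29 for AT5MAT, above that of 97.7%, 99.1% and 98.6% of probe sets, and 0.13 for UGT78D2 and 0.12 for UGT78D1, against a median of 0.11.

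Over the 12 arrays, without subtraction of means, DFR correlated with UF3GT at 0.89, with UGT78D2 at 0.87 and with AT5MAT at 0.81 (Pearson), and these were places 1, 3 and 5 among 13512 probe sets with a single gene. For UGT78D2 the closest was AT5MAT, at 0.94. DFR and UGT78D1 correlated at -0.28.

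Outside the 5 genes, the 3 named probe sets most like each of them were taken by Pearson correlation over the 12 arrays among 13508. AT4G14090 stood first for UGT78D2 (0.93), AT5MAT (0.92) and UF3GT (0.91). CHIL, a chalcone isomerase-like protein of early flavonoid synthesis, was among the 3 for AT5MAT (0.90) and UGT78D2 (0.83), as was HOS3-1 (0.90 and 0.88). UGT72E2, a glucosyltransferase gene, was among those for UF3GT (0.855). For DFR they were AT1G06750 (0.88), which was also the third for UF3GT (0.82), AT1G53770 (0.81) and AT1G80510 (0.80). UGT78D1 had other genes nearest to it, VHA-A2, a subunit of the vacuolar proton pump (0.96), AT1G31780 (0.93) and AT3G01170 (0.91). The far-red differences of VHA-A2 were 0.10 at 22 °C and 0.06 at 26 °C.

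Of 24 other flavonoid and anthocyanin genes written for the pathway, 5 were named, and limma called 0 of them for either far-red effect or either temperature effect. Over all probe sets it called 0.659% and 0.0879% for far-red light at 22 °C and 26 °C. For warmth it called 0.611% in white light and 1.1% with far-red light, so few calls could occur among 5 genes. AT4G14090 read 9.68, 10.01 and 9.72 in WL 26 °C and 9.40, 9.28 and 9.61 in WFR 26 °C (-0.37 ± 0.21, SE, limma, adjusted p = 0.783). These groups did not overlap, as for 5.17% of all probe sets in that direction. At 22 °C its groups overlapped, with a difference of 0.19 ± 0.21 (SE). CHIL differed by -0.11 ± 0.12 (SE) at 26 °C and by 0.12 ± 0.12 at 22 °C.

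AT1G06000, also on that list, had higher means with far-red light at both temperatures. Its groups at 22 °C did not overlap, as for 9.16% of all probe sets in that direction. At 26 °C the nearest arrays of WL and WFR, 10.58 and 10.60, almost met. It read 10.64, 10.59 and 10.30 in WL 22 °C and 10.78, 10.78 and 11.04 in WFR 22 °C (0.35 ± 0.10, SE; limma, adjusted p = 0.136). At 26 °C it read 10.35, 10.58 and 10.43 in WL and 10.60, 10.63 and 10.67 in WFR (0.18 ± 0.10, SE; limma, adjusted p = 0.773). It was lower with warmth alone than with far-red light alone (-0.41 ± 0.10, SE, limma, adjusted p = 0.0338). This was the 1 call in the list over all comparisons, in a comparison that called 4.03% of all probe sets. It correlated with UGT78D1 at 0.84 over the 12 arrays and with DFR at -0.10. After subtraction of the condition means, it correlated with all 5 genes, at 0.85 with UF3GT, 0.81 with UGT78D2, 0.77 with AT5MAT, 0.70 with UGT78D1 and 0.65 with DFR. BAN, an anthocyanidin reductase of the seed coat, and UGT78D3, a close relative of UGT78D2, differed by 0.03 and 0.12 with far-red light at 26 °C. Both were dim, with means of 4.85 and 4.76, above 26% and 24.3% of probe sets, so these values say little about a response.

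**Figure D5:**
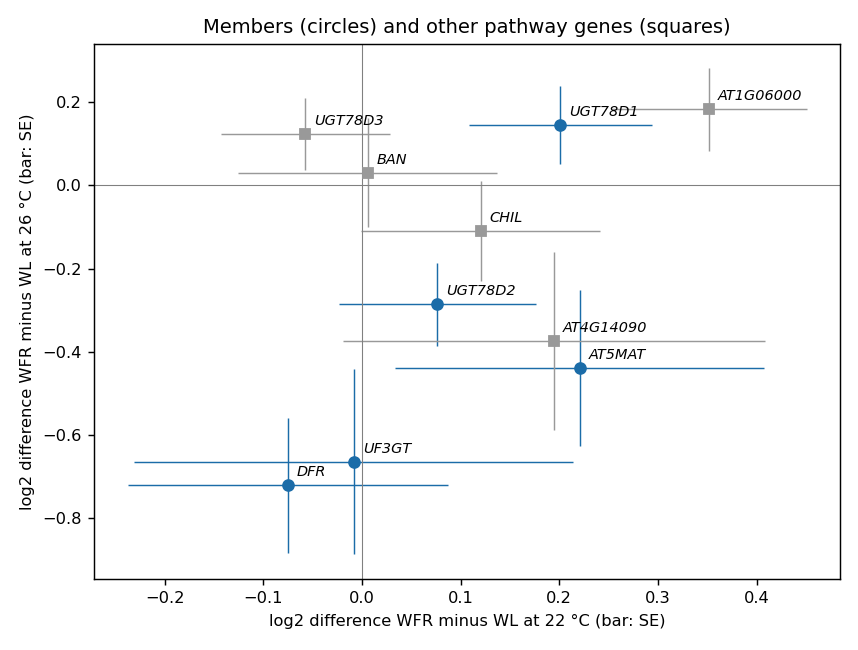
Far-red difference at 22 °C (x axis) against that at 26 °C (y axis), log2 scale, for the 5 genes (circles) and the 5 other named pathway genes (squares), with bars for the SE. UGT78D1 and AT1G06000 are above 0 on both axes, and DFR, UF3GT, AT5MAT, UGT78D2, AT4G14090 and CHIL are below 0 at 26 °C. BAN and UGT78D3 were dim, above 26% and 24.3% of probe sets in mean level.

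Of 23 flavonoid regulators written, HYH, a bZIP factor related to HY5, was the only one named. Its far-red differences were 0.11 at 22 °C and -0.01 at 26 °C, and its average difference with warmth was -0.22 ± 0.09 (SE; limma, adjusted p = 0.19). Of 23 general phenylpropanoid and lignin genes, 6 were named and limma called 0 of them in any of the 9 comparisons. The shares called over all probe sets in these comparisons ran from 0% to 5.39%. Among these, UGT72E2 differed by -0.46 ± 0.16 (SE) with far-red light at 26 °C (limma, adjusted p = 0.536).

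The wider family of UGT sugar transferases had 48 other named genes. Their far-red difference was negative for 31 of 48 at 22 °C, with a median of -0.03, against 49.2% of all probe sets. At 26 °C it was negative for 19 of 48, with a median of 0.03, against 43.3% of all probe sets. Limma called 0 of 48 for either far-red effect, against 0.659% of all probe sets at 22 °C and 0.0879% at 26 °C. For the average temperature effect it called 3 of 48, against 5.39% of all probe sets. UGT74B1, of glucosinolate synthesis, rose by 0.38 and UGT85A5 by 0.25, and UGT72B3 fell by 0.32.

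Of 9 epidermis and trichome markers written, 1 was named. This was WSD1, a wax ester synthase gene, which rose by 0.51 ± 0.08 (SE) on average with far-red light (limma, adjusted p = 0.00781). It also rose by 0.35 ± 0.08 on average with warmth (limma, adjusted p = 0.0263) and by 0.86 ± 0.12 with both signals against neither (limma, adjusted p = 0.00265). Its log2 level ranged from 5.07 to 5.33 in WL 22 °C, 5.62 to 5.76 in WFR 22 °C, 5.39 to 5.64 in WL 26 °C and 5.84 to 6.33 in WFR 26 °C. The summed level of the 3 named root markers, on the log2 scale, ranged from 11.52 to 11.80 in WL 22 °C, 11.74 to 12.15 in WFR 22 °C, 12.07 to 12.30 in WL 26 °C and 11.95 to 12.18 in WFR 26 °C. This sum is nearly that of PYK10 alone, since EXPA7 and EXPA18 were far dimmer. PYK10 differed by 0.47 ± 0.11 (SE) with warmth in white light, and this was not called (limma, unadjusted p = 0.000954, adjusted p = 0.0862). The level of EXPA18 alone was lower in WFR 26 °C than in WL 26 °C (-0.31, limma, adjusted p = 0.749). Its groups did not overlap, as for 5.17% of all probe sets in that direction. The part of these cell types in the values of the 5 genes was not tested.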

How the data were processed

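Expression was measured on 12 one-colour arrays, 3 in each of 4 conditions. The authors deposited log2 values that were already normalised, 1 for each array and probe set. The submitters' processing notes list MAS5, RMA and affy, with no roles. Precision is limited by the number of arrays. Without 64 controls, 22746 probe sets remained for testing. Platform annotation and RefSeq symbols (TAIR10.1, used for naming alone) gave a single gene for 13513, several for 503 and none here for 8730.

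In R 4.3.3, limma 3.58.1 (lmFit and eBayes, untrended) fitted the 4 condition means to the 12 arrays together, leaving 8 residual degrees of freedom plus 5.99 from the prior. Each of the 9 comparisons was tested two-sided and adjusted by Benjamini-Hochberg over every tested probe set. A call is an adjusted p under 0.05. Intervals are 95% intervals of the model. The fit was also run on simulated data with independent normal noise and the same spread in every condition. No result here rests on that run. The members are named whatever their values. Of each list, up to 2 called genes with the largest average effects are named, and for likeness the 3 most correlated named probe sets per member. Other list genes in the text were picked with their values known. Members and lists were chosen with earlier results of these data known. A list gene takes its probe set with the highest mean.

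Alternatives were 3 scalings, a filter, a replicate block, array weights, a variance trend, fits of the compared conditions alone, and leaving out each array.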

Additional observations from a re-analysis of the deposited data

How the results depend on the processing

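Limma called 0 of the 5 genes in each of the 9 comparisons as reported, and the same under the 3 scalings (array medians subtracted, quantile normalisation, cyclic loess), without the lowest 25% of probe sets, with a variance trend, with the replicate block and when any 1 array was left out. With array weights 1 gene was called for the far-red effect at 26 °C (DFR, -0.84, limma, adjusted p = 0.0227). That fit called 2 for the temperature effect in white light (DFR and UF3GT). For the average far-red effect it called 1 (DFR, -0.45, limma, adjusted p = 0.0332). Over all probe sets it called 71, 1614 and 835 in these comparisons, in that order, against 20, 139 and 255 as reported. With only the groups compared, 1 was called for the far-red effect at 26 °C (UF3GT), in a fit that called 22 of all probe sets. The cause was not tested. The array weights ran from 0.443 to 3.37, with the highest for WL 22 °C replicate 2 and WL 26 °C replicate 2. The latter held the highest WL 26 °C value of both DFR and UF3GT. Of 885 recomputed differences, 853 kept their direction and side of the threshold, 5 passed it and 27 changed sign, none of them called. The filter, the block, the trend and the fits of compared conditions alone could change only the p of a difference. The negative far-red differences of DFR, UF3GT, AT5MAT and UGT78D2 at 26 °C kept their sign throughout, but this was no real test of it. The groups of these genes did not overlap, so leaving out or weighting arrays could not reverse the sign. The 3 scalings moved the median of all probe sets only from 0.0154 to between -0.0128 and 0.0034, little beside these differences.

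Deviations of same-numbered arrays from their condition means correlated at -0.259 to 0.12, with 1 of 18 pairs over 0.1. Arrays of other numbers in different conditions correlated at -0.246 to 0.247, with 10 of 36 pairs over 0.1. These values show no pairing by number, but they cannot tell whether same-numbered arrays were handled together. With the replicate block, 0 of the 5 genes were called in any comparison, and the calls over all probe sets numbered 84 at 22 °C and 16 at 26 °C for far-red light. The number of exact permutation tests under 0.05, an alternative chosen after seeing the data, was 1 under each scaling and 0 to 2 when 1 array was left out.

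With array weights the average temperature effect became 0.022 for UGT78D2 and 0.065 for AT5MAT. Leaving out 1 array gave these ranges for differences that changed sign. The far-red effect at 22 °C ranged from -0.18 to 0.11 for DFR, -0.029 to 0.17 for UGT78D2 and -0.24 to 0.25 for UF3GT. The temperature effect ranged from -0.12 to 0.074 for UGT78D1 in white light and -0.44 to 0.015 for UF3GT with far-red light. Both signals against neither gave -0.45 to 0.044 for UF3GT and -0.26 to 0.029 for AT5MAT. Warmth alone against far-red light alone gave -0.017 to 0.18 for UGT78D2 and -0.15 to 0.29 for AT5MAT. The interaction of UGT78D1 ranged from -0.16 to 0.027, and the average far-red effect of AT5MAT from -0.22 to 0.0004. The average temperature effect ranged from -0.081 to 0.083 for DFR, -0.075 to 0.025 for UGT78D2 and -0.15 to 0.074 for AT5MAT.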
